A study of Mus musculus with 44 samples.

Results

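The genes examined were 10 cell-surface molecules through which a macrophage engages T cells and other leukocytes, namely Cd40, Cd80, Cd86, Cd83, Cd274, Icosl, Tnfsf9, Lag3, Icam1 and Vcam1. The rule takes them by symbol and uses no measured value, but the genes were chosen with earlier results of these data known. Counts of called genes among them are therefore descriptions beside the all-gene shares and no test of the set. Each of the 10 matched 1 row in all 4 gene count tables, out of 24940 genes listed per table. The common label of costimulatory, checkpoint and adhesion ligands holds for 7 of them (Cd80, Cd86, Cd274, Icosl, Tnfsf9, Icam1 and Vcam1). Cd40 and Lag3 are receptors, and Cd83 is a surface molecule of activated antigen-presenting cells.

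An antigen-presenting cell gives a T cell a peptide on MHC together with a second signal. Cd80 and Cd86, members of the B7 family, give that signal through Cd28 and are also bound by the inhibitory receptor Ctla4. Icosl engages Icos, and Tnfsf9 (4-1BBL, of the TNF superfamily) engages Tnfrsf9. Cd40 works the other way, receiving Cd40lg from helper T cells and licensing the antigen-presenting cell. Cd274 (PD-L1) restrains T cells through Pdcd1, and Lag3 is an inhibitory receptor best known from T cells, which binds MHC class II. Icam1 and Vcam1 hold leukocytes through the integrins LFA-1 (Itgal with Itgb2) and VLA-4 (Itga4 with Itgb1). In macrophages, Toll-like receptors act on many of these genes through NFκB, and through interferon made in response via the kinase TBK1.

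RNA-seq was done on bone marrow-derived macrophages (BMDMs), grown with M-CSF from the marrow of C57BL/6 mice aged 8 to 12 weeks, in 44 libraries that form 22 groups of 2. In the NCoR experiment, WT cells carried NCoR flox/flox and NKO cells NCoR flox/flox with LysMCre, a Cre driven from the Lyz2 locus in myeloid cells, and both received vehicle (Veh), KLA (a Toll-like receptor 4 agonist), poly I:C (a double-stranded RNA mimic, PolyIC), IFNβ (IFNb) or IL4 for 6 h, or RANKL (the osteoclast differentiation factor) for 12 h. The library names of the 4 RANKL libraries call the cells osteoclasts, where the labels and the other names say macrophages, so the RANKL groups may come from another culture. Cells labelled wild type received vehicle, KLA or KLA with the HDAC3 inhibitor RGFP966 (Veh, KLA, RGFP966_KLA), or vehicle, KLA or KLA with a TBK1 inhibitor on a DMSO background (DMSO_Veh, DMSO_KLA, TBK1i_KLA), with ligand or vehicle for 6 h. By the study's methods both inhibitors went in when serum was reduced, 12 h ahead of the ligand, so that inhibited cells also met the drug before KLA. Pgc1b flox/flox cells without and with LysMCre received vehicle or KLA for 6 h by the labels (Pgc1b_flox and Pgc1b_flox_Cre, Veh and KLA). The sources used here do not say whether 2 libraries of a group came from separate mice, so p-values measure the spread between these libraries, which may be technical.

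Counts in genes ranged from 8323493 to 16783155 per library, and 3 counts, taken as the limit of detection, came to 0.141 to 0.500 CPM, a count scaled to the size of its library. Ncor1 was at 162 and 169 CPM in the WT_Veh libraries and 56.4 and 57.6 CPM in the NKO_Veh libraries, but Ppargc1b, the gene of the Pgc1b alleles, was at 7.81 and 6.78 CPM in Pgc1b_flox_KLA and 10.3 and 8.74 CPM in Pgc1b_flox_Cre_KLA, so the counts do not show its loss, and whether reads outside the deleted part carry them was not tested. The study also ran an immunoblot for the PGC1β protein in BMDMs of both Pgc1b genotypes, and calls those with Cre knockouts. Date stamps in the library names put both RANKL groups, WT_KLA and NKO_KLA each apart from the vehicle, PolyIC, IFNb and IL4 libraries, and the WT_KLA and NKO_KLA stamps were 1401 days apart, so that genotype and date cannot be told apart at KLA. Summed macrophage markers (7 genes) were at 9167 CPM or more in all 44 libraries. Among them Lyz2, which carries the Cre, was lower in cells with it, at 9288 and 9129 CPM in WT_Veh and 4581 and 4626 CPM in NKO_Veh. The T cell, B cell and NK cell lists (6, 5 and 4 genes) stayed at or below 67.1, 8.63 and 3.04 CPM, and 3 of the 6 T cell markers and 2 of the 4 NK cell markers had 3 counts or fewer in every library. Neutrophil markers (5 genes) summed to 628 to 727 CPM in WT_RANKL and 860.3 to 862 CPM in NKO_RANKL against at most 7.22 CPM in the other 40 libraries, and stromal markers (6 genes) to 195 to 221 and 229.9 to 326 CPM against at most 131 CPM.

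All 10 genes lie on autosomes of mm10. On the plus strand were Cd40 (chromosome 2, 165055636-165071654), Cd80 (chromosome 16, 38458933-38495958), Cd83 (chromosome 13, 43785112-43803133), Cd274 (chromosome 19, 29367438-29388094), Icosl (chromosome 10, 78069368-78079525), Tnfsf9 (chromosome 17, 57105385-57107757) and Icam1 (chromosome 9, 21015940-21028814). On the minus strand were Cd86 (chromosome 16, 36603869-36666077), Lag3 (chromosome 6, 124904359-124911705) and Vcam1 (chromosome 3, 116110020-116129688). Counts were of reads in exons, and the transcript listed for Cd40 is a non-coding RefSeq record. In the GENCODE M21 annotation of the same build, exons of antisense genes overlap 511 bases of Cd274 exons, 192 bases of Tnfsf9, 511 bases of Icam1 and 61 bases of Vcam1. The headers name no strand option, and reads of such partners cannot be told apart there if strand was not used.

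Promoter sequence from RefSeq (GRCm38.p6, the assembly of mm10) matched 4 of the 10 genes, and the 250 bases before each start site are shown for these 4, which all rose with KLA. Capitals mark matches on either strand to the κB consensus, to the interferon-stimulated response element GAAANNGAAA, to the AP-1 site TGANTCA or to the interferon-γ-activated site TTCNNNGAA; no match overlapped another.
Icam1, chr9:21015690-21015939, plus strand: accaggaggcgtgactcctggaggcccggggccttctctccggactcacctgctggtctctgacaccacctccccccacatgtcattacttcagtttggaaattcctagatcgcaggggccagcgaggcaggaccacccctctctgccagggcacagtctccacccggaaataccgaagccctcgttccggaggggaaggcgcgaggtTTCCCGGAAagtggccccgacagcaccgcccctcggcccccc
Icosl, chr10:78069118-78069367, plus strand: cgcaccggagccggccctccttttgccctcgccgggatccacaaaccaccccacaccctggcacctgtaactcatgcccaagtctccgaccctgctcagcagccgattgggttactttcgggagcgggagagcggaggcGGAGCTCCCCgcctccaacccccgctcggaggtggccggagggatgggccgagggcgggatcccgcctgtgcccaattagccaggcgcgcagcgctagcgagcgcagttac
Cd80, chr16:38458683-38458932, plus strand: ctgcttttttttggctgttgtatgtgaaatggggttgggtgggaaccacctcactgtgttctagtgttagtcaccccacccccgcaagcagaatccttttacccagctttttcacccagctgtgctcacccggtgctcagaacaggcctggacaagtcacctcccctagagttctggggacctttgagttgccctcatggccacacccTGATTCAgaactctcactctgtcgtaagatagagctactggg
Cd274, chr19:29367188-29367437, plus strand: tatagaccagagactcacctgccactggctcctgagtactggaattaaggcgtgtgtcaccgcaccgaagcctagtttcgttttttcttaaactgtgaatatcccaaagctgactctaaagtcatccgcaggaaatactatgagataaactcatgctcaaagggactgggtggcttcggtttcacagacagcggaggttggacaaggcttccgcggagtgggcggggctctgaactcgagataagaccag
The Icam1 window held 1 TTCNNNGAA match, 42 bases before the start site, a motif present in 7.02% of the 32851 mouse promoters of the same length. The Icosl window held 1 κB match on the strand opposite the gene, 111 bases before the start (7.25% of promoters), and the Cd80 window 1 AP-1 match 42 bases before it (6.75%). The Cd274 window held none of the 4 motifs, and GAAANNGAAA, present in 2.98% of promoters, was in none of the 4 windows. A match is a run of letters and not a measured site. Only full matches to each pattern were marked, so a κB-like run with another base stays in lower case. A window without a mark is thus not shown to lack such a site. Not matched were Cd40, Cd86, Cd83, Tnfsf9, Lag3 and Vcam1.

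Per kilobase of transcript, resting WT BMDMs carried most Cd274 (31.7 CPM per kb), Cd83 (30.9) and Icam1 (27), while Cd40, Icosl, Cd86, Cd80, Vcam1 and Tnfsf9 lay between 3.53 and 1.15 CPM per kb. Lag3 had 2 and 0 counts in the WT_Veh libraries, at or below the detection limit. After KLA the highest per length was Cd40 (1110.3 CPM per kb), followed by Icam1 (794) and Cd274 (658), and the lowest were Cd80 (6.41) and Lag3 (3.07). The 2 B7 ligands of Cd28 thus stood at unlike levels, Cd86 reaching 53.6 CPM per kb. All further levels are CPM scaled within each table, so levels of different tables are not on a common scale.

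**Figure D1:**
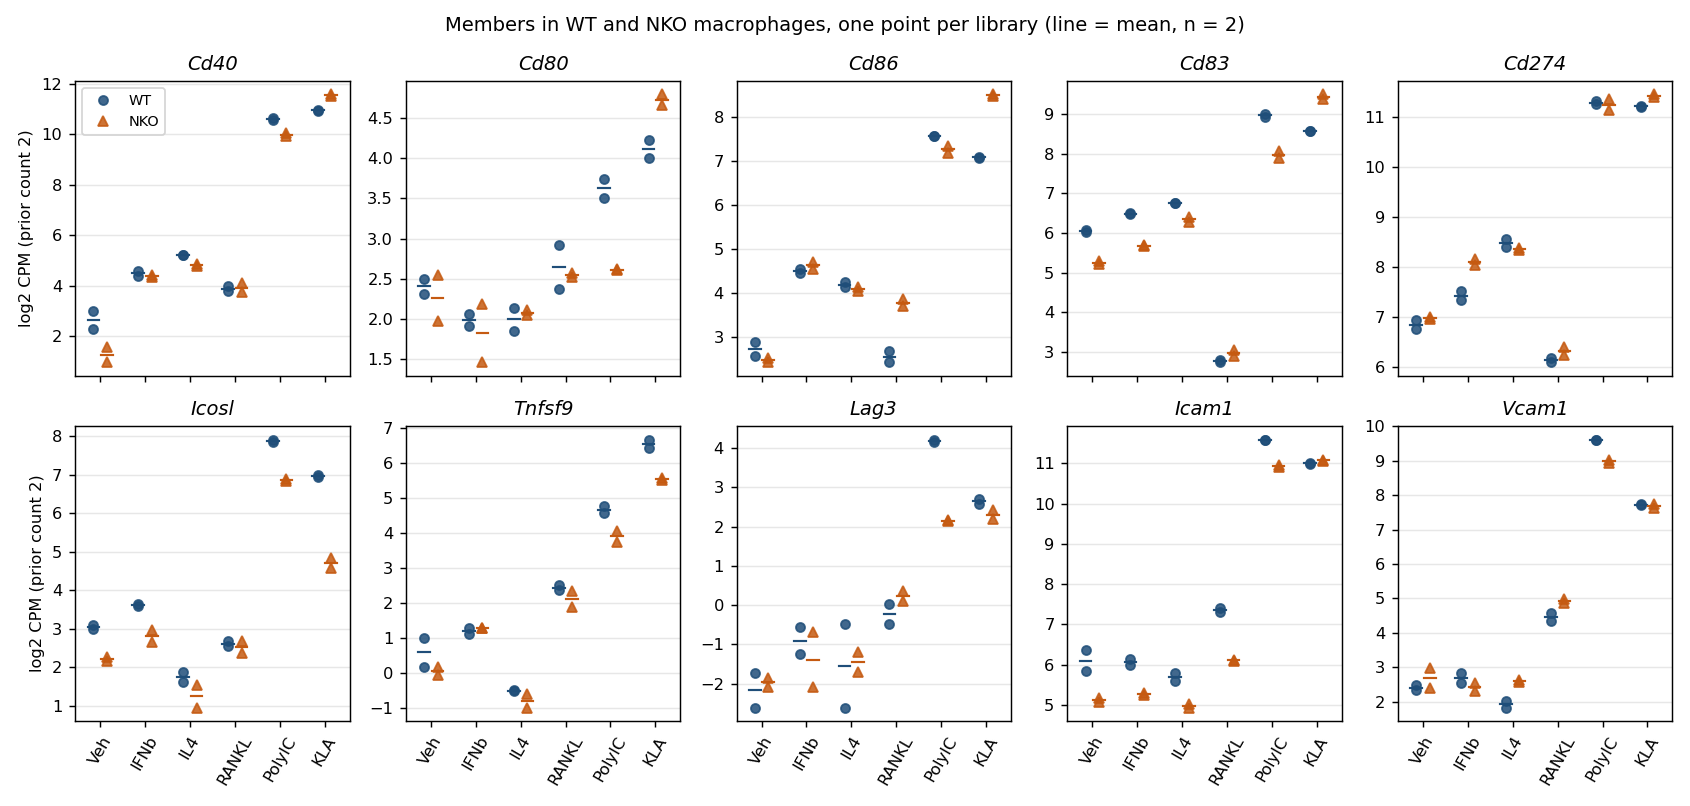
Levels of the 10 genes in WT (circles) and NKO (triangles) BMDMs under 6 conditions, as log2 CPM with a prior count of 2; each point is 1 library and each line the mean of 2. Every gene is highest under PolyIC or KLA, and Cd83 is lowest under RANKL.

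To explore how Toll-like receptor 4 activation acts on these genes, KLA was compared with vehicle in WT cells. All 10 rose, where a gene counts as called with an adjusted p under 0.05 and a change over 1.5-fold in edgeR's quasi-likelihood test, against 25.4% of the 13407 genes tested that were called higher in this comparison. Cd40 was at 4.75 and 7.8 CPM in the vehicle libraries and 1942 and 2002 CPM with KLA, a log2 fold change of 8.29 ± 0.11 (SE, adjusted p = 1.13e-32). Among the costimulatory ligands, Tnfsf9 went from 0.963 and 1.85 to 86.3 and 101 CPM (log2 fold change 6.05 ± 0.17), Cd86 from 5.71 and 7.18 to 134 and 137 CPM (4.39 ± 0.096), and Icosl from 7.84 and 8.35 to 122 and 128 CPM (3.95 ± 0.10). Cd80, which shares its receptors with Cd86, rose least, from 4.82 and 5.47 to 15.9 and 18.5 CPM (1.74 ± 0.20, adjusted p = 8.52e-12). Cd83 was already present at 66.8 and 64.8 CPM and reached 377 and 381 CPM (2.53 ± 0.062).

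The inhibitory and adhesion genes rose too. Cd274, the ligand of Pdcd1, was at 108 and 122 CPM with vehicle and 2406 and 2373 CPM with KLA (log2 fold change 4.37 ± 0.077). Lag3 had 39 and 35 counts with KLA, so its pooled counts per effective library were 89.1-fold (95% interval 23.8 to 749) those of vehicle, an exact Poisson interval that covers counting error only. The T cell markers, chiefly Lck, summed to 0.138 to 0.342 CPM with vehicle and 17.8 to 18.5 CPM with KLA, and the dendritic cell markers (5 genes) to 1.44 to 1.57 and 4.42 to 4.67 CPM. Their part in the Lag3 value was not tested. Icam1 rose from 56.8 and 81.7 to 2072 and 2009 CPM (4.88 ± 0.12) and Vcam1 from 5.43 and 4.86 to 209 and 213 CPM (5.35 ± 0.10). In no member did the vehicle and KLA libraries overlap. The WT_KLA stamps are 115 days earlier than those of WT_Veh, so that date and ligand cannot be told apart here, whereas the DMSO_Veh and DMSO_KLA libraries share 1 stamp. The median log2 fold change of the 10 was 4.64 beside -0.14 over all genes tested. The summed endothelial markers (4 genes, chiefly Kdr) were 5.85 to 7.32 CPM with vehicle and 183 to 194 CPM with KLA. The stromal markers were 88.1 to 97.1 CPM with vehicle and 1.31 to 1.50 CPM with KLA. The part of both lists in the Icam1 and Vcam1 values was not tested. In bulk RNA, more cells of a type and more RNA per cell cannot be told apart.

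The KLA response was measured again in 3 other sets of libraries, and all 10 genes were called higher in each (background 27.9% higher and 32.2% lower for KLA against Veh, 29.6% and 29.3% for DMSO_KLA against DMSO_Veh, 22.8% and 25.7% for Pgc1b_flox_KLA against Pgc1b_flox_Veh). Cd40 had the largest log2 fold change among the 9 genes other than Lag3 in all 4 sets, between 8.29 and 9.52, and Cd80 the smallest, between 1.19 and 1.74. Cd274 ranged from 4.37 to 5.83. Tnfsf9 and Vcam1 spread most, Tnfsf9 from 2.86 ± 0.15 in Pgc1b flox/flox cells to 6.41 ± 0.14 in wild type cells of the RGFP966 experiment, and Vcam1 from 3.82 ± 0.092 to 8.02 ± 0.11 in the same sets. With vehicle, Pgc1b flox/flox cells held 5.03 and 4.29 CPM of Tnfsf9 and 17 and 15.9 CPM of Vcam1, and the Veh libraries 0.844 and 1.18 CPM of Tnfsf9 and 1.41 and 1.49 CPM of Vcam1. Lag3 had 0 and 12 counts in the 2 Pgc1b_flox_Veh libraries, which therefore disagree on its baseline, and its call there was lost with DESeq2 (adjusted p = 0.0827). These sets differ in genotype, date and scaling together, so differences between them were not tested.

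PolyIC, the Toll-like receptor 3 ligand, also raised all 10 genes (background 22.2% higher), but not in the same proportions. Vcam1 reached 774 and 784 CPM (7.24 ± 0.092), Icosl 232 and 240.4 CPM (4.86 ± 0.094), Icam1 3079.9 and 3073 CPM (5.47 ± 0.12) and Lag3 18.5 and 17.7 CPM, and in each the PolyIC libraries lay above the KLA libraries. Cd86, at 189 to 191 CPM, and Cd83, at 490 to 515 CPM, also lay above their KLA libraries. Lag3 had 155 and 147 counts, 263-fold (95% interval 72.3 to 2184) those of vehicle. In contrast, Tnfsf9 came to 23.3 and 26.9 CPM (4.15 ± 0.20), below its 2 KLA libraries, as did Cd40 at 1506 and 1613 CPM and Cd80 at 11.2 and 13.2 CPM. Cd274, at 2452 and 2555 CPM, was less than 1.5-fold from its KLA level. PolyIC and KLA libraries of WT cells were made on different dates and were not tested against each other. The endothelial markers summed to 285 to 300.2 CPM with PolyIC, the dendritic cell markers to 14.6 to 17.1 CPM and the T cell markers to 21.7 to 22.5 CPM. The stromal markers summed to 115 to 131 CPM with PolyIC, 88.1 to 97.1 CPM with vehicle and 1.31 to 1.50 CPM with KLA. The part of these lists in the values, Vcam1 and Icam1 included, was not tested.

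IFNβ, the cytokine made downstream of both ligands, raised 2 of the 10, Cd40 and Cd86, where 4.09% of genes were called higher. Cd40 reached 21 and 24 CPM (1.84 ± 0.14, adjusted p = 1.18e-11) and Cd86 23.1 and 21.6 CPM (1.79 ± 0.12, adjusted p = 9.18e-20), both well under their PolyIC levels. Cd83, Cd274 and Icosl passed the adjusted p but not the 1.5-fold limit (0.44 ± 0.063, 0.57 ± 0.073 and 0.58 ± 0.13). Cd274 was called without WT_IFNb replicate 1 (0.66) or WT_Veh replicate 2 (0.66), and Icosl without the same libraries (0.62 and 0.63). Tnfsf9 was called without WT_Veh replicate 2 (1.14), and Lag3, at 4 and 7 counts, passed without WT_Veh replicate 1, which leaves 0 counts in the vehicle group. Neither adhesion ligand passed, as Icam1, at 70.5 and 63.4 CPM, lay between its vehicle libraries (-0.046 ± 0.12), and Vcam1 was at 5.63 and 6.98 CPM (0.28 ± 0.17). Tested directly, all 10 genes were higher with PolyIC than with IFNβ (20.5% of genes higher), by 1.67 for Cd80 to 6.95 for Vcam1 on the log2 scale.

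IL4 gave a split pattern, with 4 genes called higher (background 6.63%) and 2 lower (6.46%). Cd40 (37.1 and 37 CPM, 2.56 ± 0.13), Cd274 (338 and 379 CPM, 1.64 ± 0.072), Cd86 (18.7 and 17.3 CPM, 1.48 ± 0.12) and Cd83 (108 and 108 CPM, 0.72 ± 0.063) rose. Icosl fell to 3.54 and 2.92 CPM (-1.32 ± 0.18, adjusted p = 1.1e-08) and Tnfsf9 to 0.55 and 0.538 CPM (-1.35 ± 0.43, adjusted p = 0.0112). The Tnfsf9 call was lost without WT_IL4 replicate 1 (-1.37), WT_IL4 replicate 2 (-1.34) or WT_Veh replicate 2 (-0.81), and when only these 2 groups were fitted (adjusted p = 0.0584). Icam1 (-0.42 ± 0.12) and Vcam1 (-0.51 ± 0.20) stayed within 1.5-fold, except that Icam1 was called lower without WT_Veh replicate 1 (-0.66) and Vcam1 without WT_Veh replicate 2 (-0.59). Lag3 had 7 and 0 counts, 3.97-fold (95% interval 0.755 to 39.1) those of vehicle, an interval that includes 1, although the fit called it without WT_IL4 replicate 2.

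RANKL raised 5 of the 10 (24.1% of genes were called higher) and lowered 2 (19.8%). Cd83 fell from 66.8 and 64.8 to 6.8 and 6.49 CPM, a log2 fold change of -3.30 ± 0.094 (adjusted p = 2.76e-38), and Cd274 fell to 71.9 and 67.8 CPM (-0.72 ± 0.077). Vcam1 rose to 23.6 and 20.2 CPM (2.09 ± 0.13), Tnfsf9 to 4.97 and 5.51 CPM (1.89 ± 0.25), Icam1 to 169 and 158 CPM (1.24 ± 0.11) and Cd40 to 15.8 and 13.6 CPM (1.23 ± 0.15). Lag3 had 13 and 8 counts, 10.3-fold (95% interval 2.53 to 90.9) those of vehicle. Cd80, Cd86 and Icosl did not pass (0.27 ± 0.20, -0.18 ± 0.15 and -0.44 ± 0.15). RANKL was given for 12 h and vehicle for 6 h on another date, to cells that the library names call osteoclasts, so ligand, time, date and culture cannot be told apart. The neutrophil and stromal markers given above stood higher in the RANKL libraries, and their part in these values, Vcam1 and Icam1 included, was not tested.

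Over the 12 groups of the NCoR experiment, Cd40, Cd80, Cd86, Cd83 and Cd274 were highest in NKO_KLA, Tnfsf9 in WT_KLA, and Icosl, Lag3, Icam1 and Vcam1 in WT_PolyIC. The lowest group was NKO_Veh for Cd40 and Cd86, NKO_IFNb for Cd80, WT_Veh for Lag3, WT_RANKL for Cd83 and Cd274, NKO_IL4 for Icosl, Tnfsf9 and Icam1, and WT_IL4 for Vcam1. Of the 11 neighbouring pairs in each order, the libraries overlapped in 0 for Cd83, in 2 for Cd40, Cd274, Icosl, Tnfsf9 and Icam1, in 3 for Cd86, in 4 for Lag3 and Vcam1, and in 6 for Cd80. For Cd80 each of the 6 groups from WT_Veh (5.14 CPM) down to NKO_IFNb (3.49 CPM) overlapped the next, so that their order is not resolved.

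To investigate the part of NCoR, NKO and WT cells were set against each other within each treatment. With vehicle, 4 of the 10 genes were lower in NKO (background 3.8% lower) and none passed as higher (2.4%). Cd40 was at 1.79 and 2.79 CPM (-1.41 ± 0.22, adjusted p = 1.4e-05), Icam1 at 36.1 and 33.3 CPM (-1.0 ± 0.12), Icosl at 4.31 and 4.62 CPM (-0.85 ± 0.16) and Cd83 at 37 and 39 CPM (-0.79 ± 0.069, adjusted p = 2.67e-14). Cd274, at 124 and 128 CPM (0.13 ± 0.074), and Cd80, at 5.67 and 3.76 CPM (-0.15 ± 0.21), did not pass. Vcam1 (0.29 ± 0.16) was called higher without NKO_Veh replicate 2 (0.59). In each of the 4 lower genes, both NKO libraries lay under both WT libraries, and Icam1 just missed the threshold when only these 2 groups were fitted (adjusted p = 0.0503).

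With PolyIC, 8 of the 10 genes were lower in NKO (background 2.92% lower) and none passed as higher (3.01%). The change of the NKO effect from vehicle to PolyIC was itself called for 3 of the 10 (3.24% of genes in either direction). It was negative for Cd80 (-0.88 ± 0.30) and Vcam1 (-0.91 ± 0.17) and positive for Cd40 (0.79 ± 0.24). When only the compared groups were fitted with edgeR, the Cd40 (adjusted p = 0.159) and Cd80 (adjusted p = 0.0560) terms were not called. The Vcam1 term was at -0.61 without NKO_Veh replicate 1. Lag3 differed most, with 155 and 147 counts in WT and 41 and 41 in NKO, or 4.33 and 4.25 CPM (-2.07 ± 0.25, adjusted p = 1.19e-09). Among the costimulatory genes, Cd80 was at 5.91 and 6.01 CPM (-1.03 ± 0.21), Icosl at 118 and 113 CPM (-1.03 ± 0.069), Cd83 at 237 and 266 CPM (-1.0 ± 0.055), Tnfsf9 at 13.3 and 16.6 CPM (-0.75 ± 0.14) and Cd40 at 975 and 1048 CPM (-0.62 ± 0.069). Both adhesion ligands were lower, Icam1 at 1911 and 1976 CPM (-0.66 ± 0.094) and Vcam1 at 488 and 523 CPM (-0.62 ± 0.057). Cd86 (-0.30 ± 0.061) passed the adjusted p but not the fold, and Cd274, with 2257 and 2623 CPM in NKO, overlapped its WT libraries (-0.037 ± 0.065). The Cd40 call was lost without NKO_PolyIC replicate 1 (-0.57) or WT_PolyIC replicate 2 (-0.57), and the Vcam1 call without NKO_PolyIC replicate 1 (-0.57). The endothelial markers summed to 138 to 164 CPM in NKO and 285 to 300.2 CPM in WT, and the stromal markers to 62.7 to 71.5 and 115 to 131 CPM. The dendritic cell markers summed to 9.5 to 11.5 and 14.6 to 17.1 CPM, and the T cell markers to 11.1 to 11.6 and 21.7 to 22.5 CPM. Their part was not tested.

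After IFNβ, 3 of the genes lower with vehicle were called lower again, Cd83 (-0.80 ± 0.066), Icosl (-0.82 ± 0.14) and Icam1 (-0.80 ± 0.12), beside 1.94% of all genes. Cd40, at 20.4 and 21.3 CPM, overlapped the WT libraries (-0.11 ± 0.11), and Cd274 was higher, 262 and 284 against 161 and 182 CPM (0.67 ± 0.071, adjusted p = 6.53e-09, background 1.86% higher), a call lost without WT_IFNb replicate 1 (0.58). With IL4, Icam1 was lower (-0.72 ± 0.13, background 2.33%) and Vcam1 higher (0.69 ± 0.19, background 1.9%), the latter not without WT_IL4 replicate 1 (0.60). With RANKL, Icam1 was at 69.5 and 68 CPM in NKO and 169 and 158 CPM in WT (-1.25 ± 0.11, background 6.99% lower), while Cd86 was higher, 12.7 and 14.3 against 6.21 and 5.16 CPM (1.24 ± 0.14, background 6.21% higher). Icam1 was therefore called lower in NKO under vehicle, PolyIC, IFNβ, IL4 and RANKL, but not at KLA (0.074). These comparisons share no library but rest on the same fit. The vehicle, PolyIC, IFNβ and IL4 libraries also carry the same date stamp and may share mice, so the calls are not shown to be independent. The vehicle call was lost when only its 2 groups were fitted with edgeR (adjusted p = 0.0503).

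The effect of NCoR loss was then compared between conditions through interaction terms, which all share the vehicle libraries. Cd40, lower in NKO with vehicle, had a positive interaction with each ligand, of 1.45 ± 0.26 for RANKL (adjusted p = 7.59e-05; 14.2% of genes were called in either direction), 1.31 ± 0.25 for IFNβ (0.604%), 1.01 ± 0.25 for IL4 (0.604%) 0.79 ± 0.24 for PolyIC (3.24%) and 2.01 ± 0.23 for KLA (36.9%). These rest on vehicle values of 4.75 and 7.8 CPM in WT and 1.79 and 2.79 CPM in NKO, and the IL4 term was not called without WT_Veh replicate 2 (0.61), NKO_Veh replicate 1 (0.76), WT_IL4 replicate 1 (1.02) or NKO_IL4 replicate 2 (0.97). The PolyIC term was not called without WT_Veh replicate 2 (0.39), NKO_Veh replicate 1 (0.54), WT_PolyIC replicate 1 (0.74) or NKO_PolyIC replicate 2 (0.74), nor when only the 4 groups compared were fitted (adjusted p = 0.159). The Cd80 term for PolyIC was likewise lost with those 4 groups alone (adjusted p = 0.0560) and without any 1 of 5 libraries, with values of -0.89 to -0.58. The Vcam1 term was lost without NKO_Veh replicate 1 (-0.61). The Icosl term for RANKL, 0.76 ± 0.24, was lost with only its 4 groups (adjusted p = 0.0532) and without NKO_RANKL replicate 2 (0.59). The RANKL terms of Cd86 and Cd83 were 1.50 ± 0.21 and 0.99 ± 0.16. In all RANKL terms, ligand, time, date and culture cannot be told apart. In the KLA term, genotype, ligand and date cannot be told apart.

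At KLA, 4 of the 10 genes were called higher in NKO (background 21%) and 2 lower (19%). Cd86 was at 367 and 360.1 CPM in NKO (1.42 ± 0.062), Cd83 at 666 and 721 CPM (0.87 ± 0.054), Cd80 at 27.5 and 25.1 CPM (0.62 ± 0.16) and Cd40 at 3040 and 2937 CPM (0.60 ± 0.069). Icosl was at 23.5 and 28.4 CPM (-2.27 ± 0.088, adjusted p = 3.48e-31) and Tnfsf9 at 45.7 and 47.1 CPM (-1.01 ± 0.11), so that 2 costimulatory ligands were lower where the B7 ligands of Cd28 were higher. Cd274 (0.21 ± 0.066), Icam1 (0.074 ± 0.094), Vcam1 (-0.034 ± 0.064) and Lag3 (-0.35 ± 0.30) did not pass. The Cd40 call was lost without NKO_KLA replicate 1 (0.58) or WT_KLA replicate 1 (0.58), and the Cd80 call without the same libraries (0.55 and 0.51). Cd40 was also within the fold limit with DESeq2 (0.58), and both genes were when only these 2 groups were fitted (0.56 for Cd40, 0.58 for Cd80). The T cell markers, chiefly Lck, summed to 56.4 to 67.1 CPM in NKO_KLA and 17.8 to 18.5 CPM in WT_KLA, and the dendritic cell markers to 31.4 to 35.7 and 4.42 to 4.67 CPM, and their part was not tested.

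NKO_KLA was also set against the KLA libraries of the other 3 experiments in a joint fit, to see how far the values turn on the control chosen. All 4 contrasts use the same 2 NKO_KLA libraries and controls of later dates, so genotype and date cannot be told apart in any of them. In this fit 37.3% to 46.9% of 10864 genes were called. Cd86 was higher against all 4 controls, with log2 fold changes of 1.36 to 1.71, and Icosl lower against all 4, with -3.48 to -1.77. No other member was called in 1 direction against all 4. Cd83 was called against WT_KLA (0.81) and Pgc1b_flox_KLA (0.89) but was at 0.0077 against KLA. Tnfsf9 was lower against 3 controls and at 0.41 against Pgc1b_flox_KLA. Cd80 was called higher against KLA (0.60) and DMSO_KLA (0.65) and lower against Pgc1b_flox_KLA (-0.70). Neither Cd40, at -0.082 to 0.54, nor Cd274, at -0.55 to 0.33, was called against any control in the joint fit. Icam1, Vcam1 and Lag3 were not called against WT_KLA, but Icam1 was lower against 2 of the other controls (-0.62 and -0.59), Vcam1 against 2 (-1.20 and -0.82) and Lag3 against 1 (-0.89).

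**Figure D2:**
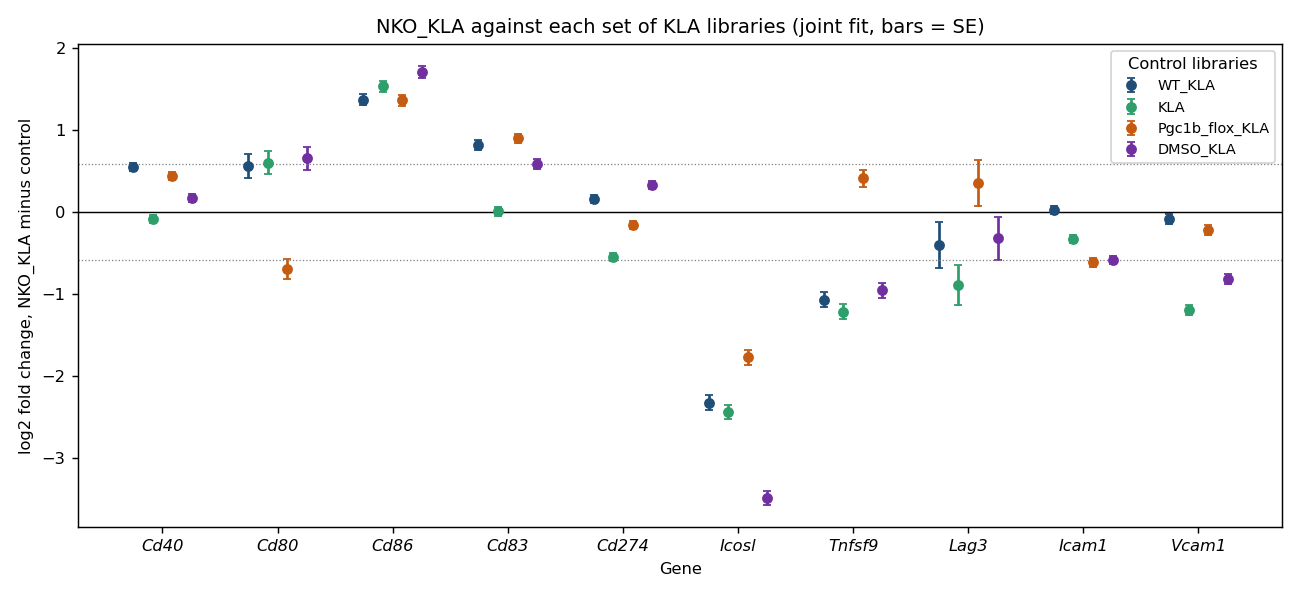
Log2 fold change of each gene in NKO_KLA against 4 sets of KLA libraries in a joint fit; points are estimates, bars 1 SE, and dotted lines mark 1.5-fold. Cd86 is above the upper line and Icosl below the lower line for all 4 controls, while Cd40, Cd80, Cd274, Tnfsf9, Lag3 and Icam1 change sign with the control.

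**Figure D3:**
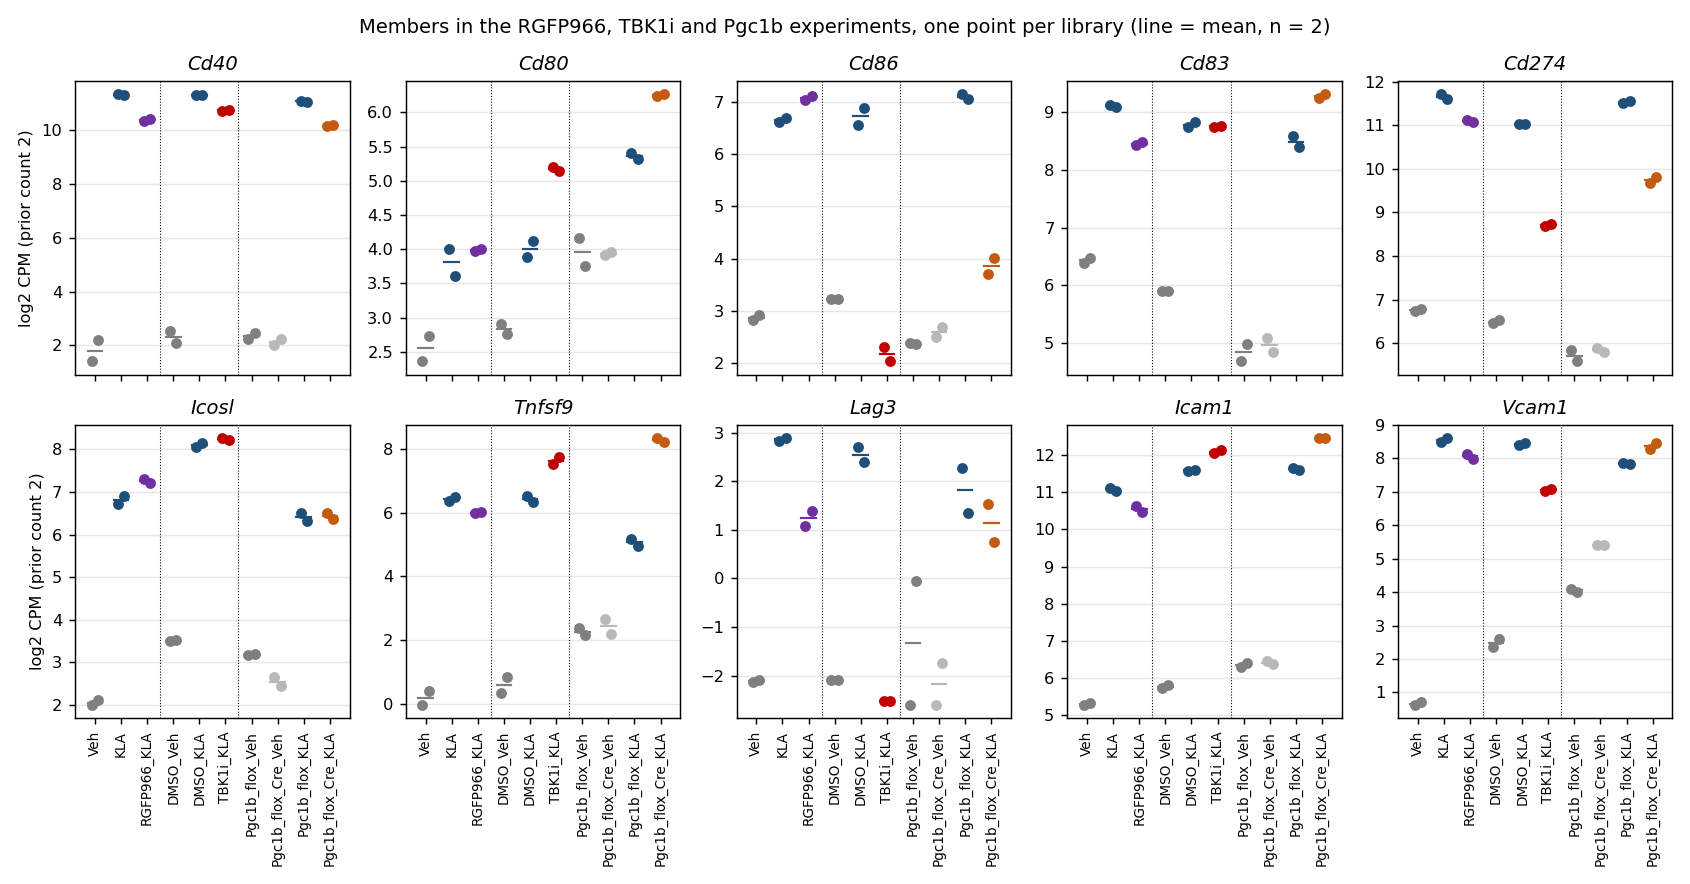
Levels of the 10 genes in the RGFP966, TBK1i and Pgc1b experiments, as log2 CPM with a prior count of 2; points are libraries, lines means of 2, and dotted lines separate the experiments. With TBK1i, Cd86 lies below its vehicle libraries and Lag3 at 0 counts, while Tnfsf9 and Cd80 lie above DMSO_KLA.

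To examine the role of HDAC3 catalytic activity, RGFP966 with KLA was compared with KLA alone. Of the 10 genes, 3 were lower (background 9.54% lower) and none passed as higher (15.8%). Cd40 was at 2555 and 2507 CPM with KLA and 1301 and 1343 CPM with RGFP966 (-0.94 ± 0.057, adjusted p = 9.47e-25), and Cd83 at 556 and 547 CPM, then 344 and 356 CPM (-0.66 ± 0.057). Lag3 had 73 and 88 counts (6.98 and 7.25 CPM) with KLA and 27 and 33 counts (1.99 and 2.48 CPM) with RGFP966 (-1.67 ± 0.27, adjusted p = 2.22e-07). Cd274 (-0.56 ± 0.053) and Icam1 (-0.52 ± 0.055) were lower within 1.5-fold, and were called without KLA replicate 2 (-0.62) and without RGFP966_KLA replicate 1 (-0.61) respectively; DESeq2 called both (-0.62 and -0.59). Cd86 (0.42 ± 0.068) and Icosl (0.44 ± 0.068) had positive values within the fold limit. Even with the inhibitor, all 10 genes were above vehicle (background 28% higher and 26.3% lower for RGFP966_KLA against Veh), Cd40 by 8.58 ± 0.096. The 2 RGFP966_KLA libraries carry stamps 14 days apart, and the endothelial markers were 118 to 139 CPM with KLA and 34.8 to 38 CPM with RGFP966. The T cell markers were 18 to 21.6 and 5.9 to 8.85 CPM, and their part in the Lag3 value was not tested.

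To ask how far the KLA response of these genes runs through TBK1, the kinase that drives interferon production, TBK1i_KLA was compared with DMSO_KLA. The genes parted widely, with 4 lower (background 18.3%) and 2 higher (15%). Cd86 was at 9.23 and 9.27 CPM with vehicle, 94.3 and 118 CPM with KLA and 4.81 and 3.95 CPM with KLA and the inhibitor (-4.58 ± 0.13 against KLA). It was below vehicle as well (-1.07 ± 0.18, adjusted p = 9.24e-09, 30.5% of genes lower), in cells that had the inhibitor for 12 h before KLA while DMSO_Veh had none, whereas 8 of the 10 were above vehicle and Lag3 was at or below the detection limit in both groups. Cd274 was at 2076 and 2104 CPM with KLA and 415 and 425 CPM with the inhibitor (-2.31 ± 0.038), still above its 87.3 and 92.5 CPM with vehicle (2.22 ± 0.044, background 26.8% higher). Lag3 had 57 and 44 counts with KLA and 0 and 0 with the inhibitor, so that it was at least 17.8-fold lower, taking 3 counts per library as the floor. The T cell markers summed to 11.4 to 13.2 CPM in DMSO_KLA and 1.92 to 2.11 CPM in TBK1i_KLA, and their part in this value was not tested. Vcam1 was lower too, 129 and 136 against 338 and 354 CPM (-1.38 ± 0.051).

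In the opposite direction, Tnfsf9 was at 91.3 and 80 CPM with KLA and 184 and 212 CPM with TBK1i (1.21 ± 0.061), and Cd80 at 14.7 and 17.2 CPM, then 36.5 and 35.3 CPM (1.17 ± 0.13, adjusted p = 8.77e-20). The 2 B7 ligands of Cd28 thus moved apart, in libraries that did not overlap for either gene. Cd83 (-0.026 ± 0.042), Icosl (0.14 ± 0.046) and Icam1 (0.51 ± 0.033) stayed within 1.5-fold, Icosl at 308 and 298 CPM and Cd83 at 429 and 436 CPM. Cd40, at 1687 and 1698 CPM, lay just within the fold limit (-0.58 ± 0.034) and passed it without DMSO_KLA replicate 1 (-0.59). The endothelial markers summed to 121 to 128 CPM in DMSO_KLA and 3.61 to 5.19 CPM in TBK1i_KLA, and the stromal markers to 46.3 to 48.9 and 28.5 to 31.3 CPM; their part in the Vcam1 value was not tested.

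In the Pgc1b experiment LysMCre was added to Pgc1b flox/flox. With vehicle, 1 of the 10 genes differed (background 0.303% in either direction), Vcam1, at 17 and 15.9 CPM without Cre and 42.4 and 42 CPM with it (1.36 ± 0.098, adjusted p = 9.14e-12). The stromal markers summed to 0.0671 to 0.162 CPM without Cre and 1.19 to 2.94 CPM with it. The endothelial markers summed to 8.58 to 9.57 and 7.32 to 8.02 CPM, and the part of both lists in the Vcam1 value was not tested. Icosl was near the threshold (-0.64 ± 0.16, adjusted p = 0.0554). Lag3 had 0 and 12 counts without Cre and 0 and 2 with it.

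With KLA, 3 of the 10 were lower with Cre (background 12.9%) and 4 higher (13.2%). Cd86 was at 141 and 132 CPM without Cre and 13 and 16.1 CPM with it (-3.24 ± 0.13, adjusted p = 1.69e-21), Cd274 at 2909.9 and 3029 CPM, then 821 and 897 CPM (-1.79 ± 0.065), and Cd40 at 2158 and 2103 CPM, then 1121 and 1164 CPM (-0.90 ± 0.058). Tnfsf9 rose most, from 36.1 and 31 to 323 and 297 CPM (3.20 ± 0.10, adjusted p = 6.6e-24). Icam1 (5584 and 5617 CPM, 0.82 ± 0.055), Cd80 (75.4 and 76.7 CPM, 0.89 ± 0.12) and Cd83 (608 and 634 CPM, 0.79 ± 0.075) were higher as well. Icosl overlapped between the groups (0.022 ± 0.10), Lag3 did not pass (-0.75 ± 0.60), and Vcam1 (0.51 ± 0.073) was called without Pgc1b_flox_Cre_KLA replicate 1 (0.63). Cells with Cre still raised all 10 genes with KLA (background 19.2% higher), Cd86 by 1.30 ± 0.16 against 4.75 ± 0.14 without Cre, and 9 of the 10 had an interaction of Cre and KLA past the call rule (22.8% of genes in either direction). These values come with Ppargc1b counts that did not fall, macrophage markers of 9979 to 9992 CPM against 15232 to 15456 CPM without Cre, and endothelial markers of 16.6 to 19.1 against 98.4 to 110 CPM, and their part was not tested. The macrophage sum includes Lyz2, the locus that carries LysMCre, which was at 8049 and 8292 CPM without Cre and 4533 and 4393 CPM with it at KLA, and at 8108 and 8325 and 4397 and 4422 CPM with vehicle.

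The TBK1i and Cre comparisons share no library. Of the 10 genes, 8 had the same sign in both, where 71.7% of the 11904 genes tested in both tables did. Among the 8, the libraries of Icosl and Lag3 overlapped between the groups with and without Cre, so their signs there are not resolved. Called in both were 4 of the 10, each in the same direction, and over all genes 95.9% of the 2055 called in both shared their direction. The 4 were Cd86 (-4.58 and -3.24) and Cd274 (-2.31 and -1.79) as lower, and Tnfsf9 (1.21 and 3.20) and Cd80 (1.17 and 0.89) as higher. Vcam1 went apart, called lower with TBK1i (-1.38) and at 0.51 with Cre, and Cd83 was at -0.026 and 0.79. The 2 experiments differ in genotype, date and scaling, and nothing particular to the 10 genes is read from these shares. In NKO_KLA against WT_KLA, genotype and date cannot be told apart. There Cd86 was at 1.42, Cd40 at 0.60, Tnfsf9 at -1.01 and Icosl at -2.27. Cd80 (0.62) was higher there as it was with TBK1i and Cre, and Cd83 (0.87) as it was with Cre. Against Pgc1b_flox_KLA in the joint fit, Tnfsf9 in NKO_KLA was at 0.41 and Cd80 at -0.70, called lower. Against KLA in that fit, Cd83 was at 0.0077. The direction of Cd80 and the size of the Cd83 value thus turn on the control.

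**Figure D4:**
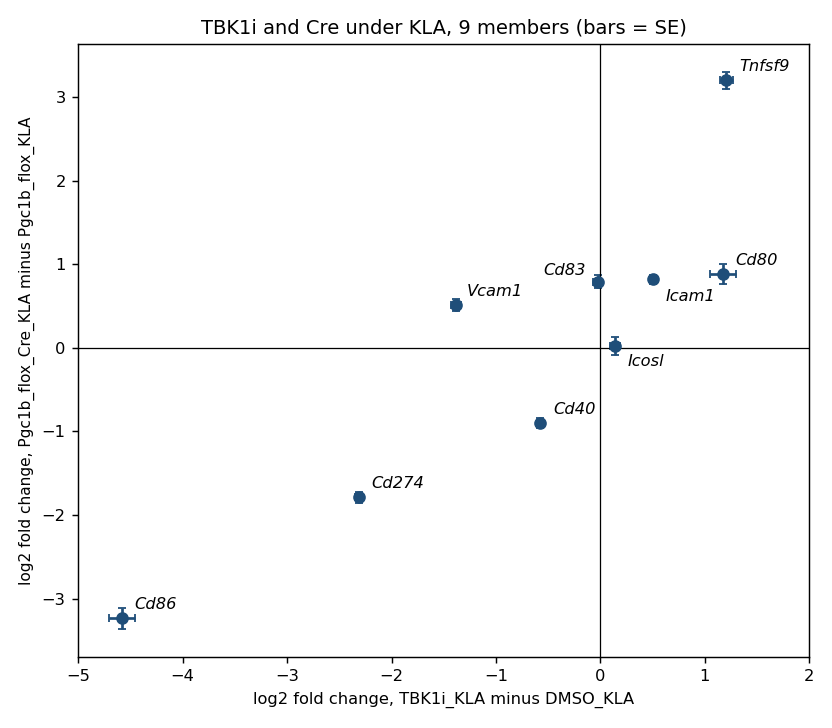
Log2 fold change of 9 genes with TBK1i (TBK1i_KLA against DMSO_KLA, x axis) and with Cre (Pgc1b_flox_Cre_KLA against Pgc1b_flox_KLA, y axis), with bars of 1 SE; Lag3, at 0 counts with TBK1i, is left out. Cd86, Cd274 and Cd40 are negative on both axes, Tnfsf9, Cd80, Icam1 and Icosl positive on both. The bar of Icosl on the y axis spans 0.

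**Figure D5:**
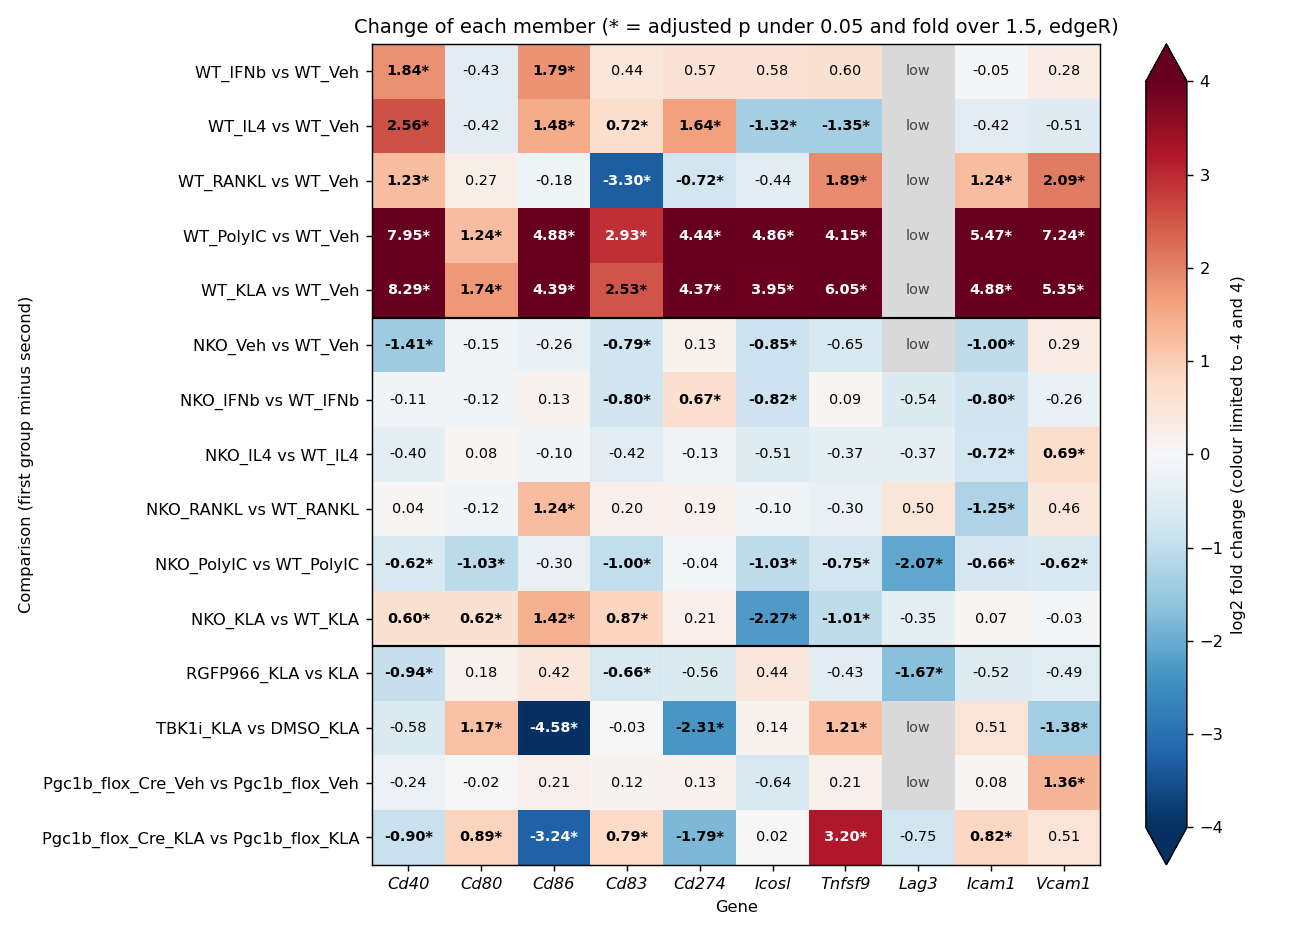
Log2 fold changes of the 10 genes in 15 comparisons, with asterisks where the adjusted p is under 0.05 and the fold over 1.5; grey cells marked low are Lag3 comparisons with a group at 3 counts or fewer per library. KLA and PolyIC raise every gene with a printed value, whereas the NKO, RGFP966, TBK1i and Cre rows differ from gene to gene.

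The genes around these 10 were followed in 5 lists of 52 genes, of which 51 were matched by symbol. The lists too were chosen with earlier results of these data known, so their counts are descriptions. With KLA in WT cells, 28 of the 40 tested were higher and 8 lower (25.4% and 32.3% of all genes), with a median of 2.02 beside -0.14 over all genes. Of the other TNF superfamily costimulatory ligands, 4 of 5 rose, led by Tnfsf4 (OX40L), from 0 counts to 34.7 ± 4.36 CPM (SD, n = 2), at least 169-fold, and Tnfsf15 (TL1A), from 0.823 ± 0.288 to 125 ± 4.88 CPM (7.23 ± 0.17). Other adhesion genes rose in 7 of 9, other checkpoint genes of myeloid cells in 10 of 14 with 3 lower, and other B7 family ligands in 1 of 3 with 2 lower. PolyIC raised 22 and lowered 4 of the 40 (22.2% and 25% of all genes), with Tnfsf4 at 67.9 ± 0.889 CPM and Tnfsf18 (GITRL) at 5.14 ± 0.472 CPM, at least 330.1-fold and 25-fold above vehicle.

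The other ligands touched these lists less evenly. IFNβ raised 4 and lowered 0 of 40, where 4.09% and 2.37% of all genes were called, led by Lgals9, a ligand of the checkpoint receptor Havcr2 (2.50 ± 0.065), and Cd47, the signal that restrains phagocytosis (0.79 ± 0.057). IL4 raised 2 and lowered 7 (6.63% and 6.46% of all genes), and the largest change was in Pdcd1lg2 (PD-L2), the second ligand of Pdcd1, from 0.549 ± 0.00209 to 60 ± 1.56 CPM (6.75 ± 0.21), beside 1.64 ± 0.072 for Cd274. Itga4, the α chain of VLA-4 and thus the partner of Vcam1, fell with IL4 (-1.25 ± 0.063). RANKL raised 14 and lowered 12 (24.1% and 19.8%), with Tnfsf4 at 7.34 ± 0.477 CPM and the selectin Selp at 10.8 ± 1.16 CPM, at least 35.6-fold and 52.3-fold above vehicle.

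Among the binding partners, Cd40lg, Ctla4 and Fgl1 averaged at most 0.0327, 0.131 and 0.0528 CPM in any group, values below the detection limit of most libraries. Cd28, the receptor of Cd80 and Cd86, was however at 65.9 ± 11.9 CPM in WT_Veh, where the T cell markers summed to 0.138 to 0.342 CPM, and fell to 2.56 ± 0.616 CPM with KLA (-4.68 ± 0.18). Both values were named after they were seen, as were those of the integrin chains Itgal (4.22 ± 0.13) and Itga4 (2.34 ± 0.060), the partners of Icam1 and Vcam1, which rose with KLA together with their ligands.

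In NKO cells 4 of the list genes were higher and 3 lower with vehicle (2.4% and 3.8% of all genes), led by Itgb7 (1.21 ± 0.14) and Cd276, a B7 family member (0.93 ± 0.15). With PolyIC 4 were higher and 3 lower (3.01% and 2.92%), with Icam2 at -1.0 ± 0.27 and Itgb7 at 0.78 ± 0.18, and the median of -0.037 stood beside -0.71 for the 10 genes and 0.0046 for all genes. Among the larger differences were, at KLA, Tnfsf8 (2.56 ± 0.31), with RANKL Slamf1 (0.92 ± 0.26), with IFNβ Cd200 (0.92 ± 0.084) and Cd276 (0.88 ± 0.15), and with IL4 Itgb7 (1.11 ± 0.17) and Cd28 (-1.08 ± 0.096). RGFP966 raised 7 and lowered 6 of 38 (15.8% and 9.54% of all genes), with F11r, a junctional adhesion molecule, from 3.03 ± 0.371 to 39.6 ± 0.553 CPM (3.69 ± 0.16) and Cd276 (2.40 ± 0.16).

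TBK1i lowered 15 and raised 4 of 40 list genes (18.3% and 15% of all genes), most of all Lgals9, from 988 ± 0.324 to 29.9 ± 1.43 CPM (-5.05 ± 0.057), and Cd200r1 (-1.95 ± 0.12). Of the 14 other checkpoint genes tested, 8 were lower and 1 higher. Cre at KLA gave 9 higher and 10 lower (13.2% and 12.9%), led by Cd28 (2.73 ± 0.22) and the selectin Sele (2.17 ± 0.37), and with vehicle 1 higher, Cd200 (0.67 ± 0.11, beside 0.303% of all genes in either direction).

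The genes most alike in pattern were found from Pearson's r of mean log2 CPM over the 12 NCoR groups among 11011 genes, which share libraries and depth, so the values are descriptions. Nearest to Cd274 were Hivep1 (0.995) and Themis2 (0.990), and to Icam1 D730005E14Rik (0.992) and Nfkbie (0.990). Cd86 was nearest to 1600014C10Rik (0.990) and Snx2 (0.982), Cd40 to Serpina3f (0.986) and Fut8 (0.985), and Cd83 to Tmem55b (0.985) and Nub1 (0.979). Vcam1 was nearest to Prdx5 (0.987) and D1Ertd622e (0.987), Tnfsf9 to Daam1 (0.983) and Ptges (0.983), and Lag3 to Rbbp8 (0.983) and Ppp2r1b (0.976). Cd80 was nearest to Adamts4 (0.978) and Rtca (0.972), and Icosl to Itga4 (0.983) and Adnp (0.981).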

How the data were processed

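The authors aligned reads with STAR to mm10 and deposited 4 tables of raw exon counts per gene made with HOMER, in whole numbers and without normalization. Tool versions are not given in the sources used here, and the library preparation marks strand while the headers name no strand option. Each of the 44 columns was matched to its sample by the labels, and the 10 genes by symbol. The genes and lists were chosen with earlier results of these data known.

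Counts were filtered with filterByExpr, scaled by TMM and tested per table over all groups with edgeR 4.0.16 (robust quasi-likelihood F-test, R 4.3.3), with Benjamini-Hochberg adjustment over 12196 to 13407 genes. Calls needed a fold over 1.5 and an adjusted p below 0.05, in 22 comparisons and 6 interactions. Log2 fold changes are given ± SE of the fit. On simulated counts for WT_IFNb against WT_Veh (13312 genes), 96 of 100 genes changed 2-fold and 98 of 100 changed 4-fold were recovered, with 1 unchanged gene called. The changed genes were drawn from those with higher mean counts, and the counts from the dispersions of the fit. The recovery therefore does not cover genes of low count such as Lag3. Totals were 8323493 to 16783155 counts per library, and 3 counts served as the floor; intervals and floors cover counting error only.

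Named beside the 10 genes were, per comparison, the 2 called list genes with the largest change that averaged at least 5 CPM in a group, and per gene the 2 most alike in pattern; values chosen otherwise are said to be. A list gene that this rule named is not reported here. Alternatives were DESeq2 1.42.0, its size factors, no filter, no fold limit, only the compared groups, the replicate block, joint fits with other KLA controls for NKO_KLA, and leaving out each library. Alike patterns, folds over floors and promoter motifs were computed in Python 3.11.15 with scipy 1.17.1, and figures drawn with matplotlib 3.10.9.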

Additional observations from a re-analysis of the deposited data

Results flagged for a closer look

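The effect of a genotype differed between vehicle and a ligand, by an interaction term past the adjusted p and 1.5-fold in edgeR's quasi-likelihood test with 2 libraries per group, in 24 cases. Values are log2 differences of the NKO or Cre effect, ligand minus vehicle. Over all genes tested, 36.9% were called in either direction for NKO with KLA, 14.2% with RANKL and 3.24% with PolyIC. For NKO with IFNβ and with IL4 the share was 0.604% each, and for Cre with KLA 22.8%.

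For NKO and KLA they were Cd40 (2.01), Cd86 (1.69), Cd83 (1.66), Icam1 (1.08), Cd80 (0.77) and Icosl (-1.42). The WT and NKO libraries of KLA differ in date as well as genotype, and these cannot be told apart. The Cd80 term was not called without NKO_Veh replicate 2 (0.48), WT_KLA replicate 1 (0.66) or WT_Veh replicate 2 (0.67). For NKO and RANKL they were Cd86 (1.50), Cd40 (1.45), Cd83 (0.99) and Icosl (0.76). The Icosl term was not called without NKO_RANKL replicate 2 (0.59) or when only the 4 groups compared were fitted (adjusted p = 0.0532). The RANKL libraries differ from vehicle in time, date and the culture named as well as ligand, and these cannot be told apart.

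For NKO and PolyIC they were Cd40 (0.79), Cd80 (-0.88) and Vcam1 (-0.91). Without 1 library, Cd40 was not called in 4 cases, Vcam1 in 1 (-0.61, without NKO_Veh replicate 1) and Cd80 in 5, namely without NKO_PolyIC replicate 1 (-0.87) or 2 (-0.89), NKO_Veh replicate 1 (-0.58), WT_PolyIC replicate 2 (-0.76) or WT_Veh replicate 1 (-0.79). With only the 4 groups compared, Cd40 (adjusted p = 0.159) and Cd80 (adjusted p = 0.0560) were not called. Cd40 was the gene past the rule with IFNβ (1.31) and with IL4 (1.01). All of these terms share the vehicle libraries, in which Cd40 had a low level.

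For Cre and KLA they were Tnfsf9 (2.99), Cd80 (0.91), Icam1 (0.74), Cd83 (0.67), Icosl (0.66), Cd40 (-0.66), Vcam1 (-0.85), Cd274 (-1.92) and Cd86 (-3.45). Cd40 was not called without Pgc1b_flox_Cre_Veh replicate 2 (-0.54) or Pgc1b_flox_Veh replicate 1 (-0.56), Cd83 without Pgc1b_flox_Cre_Veh replicate 2 (0.57) or Pgc1b_flox_Veh replicate 2 (0.51), and Icosl without Pgc1b_flox_Cre_Veh replicate 2 (0.58). Ppargc1b counts did not fall with Cre.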

How the results depend on the processing

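The number of the 10 genes called kept within 1.5 times its value under every alternative for most comparisons. It changed more for WT_IFNb against WT_Veh (2 called, 5 without the fold limit), NKO_IL4 against WT_IL4 (2, and 4 without the fold limit), the NKO interactions with PolyIC (3, and 1 with only the compared groups), IFNβ (1, and 2 without the fold limit) and IL4 (1, and 2 without the fold limit), RGFP966_KLA against KLA (3, and 5 with DESeq2, 5 with DESeq2 size factors and 9 without the fold limit) and Pgc1b_flox_Cre_Veh against Pgc1b_flox_Veh (1, and 2 with DESeq2, without the filter or with the replicate block, where Icosl passed). The fold limit itself accounts for the counts without it, and the cause of the others was not tested. Leaving out 1 library gave 2 to 5 for WT_IFNb against WT_Veh (from 2), 5 to 7 for WT_IL4 against WT_Veh (from 6), 4 to 5 for NKO_Veh against WT_Veh (from 4), 4 to 6 for NKO_KLA against WT_KLA (from 6), 6 to 8 for NKO_PolyIC against WT_PolyIC (from 8), 3 to 4 for NKO_IFNb against WT_IFNb (from 4), 1 to 2 for NKO_IL4 against WT_IL4 (from 2), 5 to 6 for the NKO interaction with KLA (from 6), 3 to 4 for the NKO interaction with RANKL (from 4), 0 to 3 for the NKO interaction with PolyIC (from 3), 1 to 2 for the NKO interaction with IFNb (from 1), 0 to 1 for the NKO interaction with IL4 (from 1), 3 to 4 for RGFP966_KLA against KLA (from 3), 7 to 8 for Pgc1b_flox_Cre_KLA against Pgc1b_flox_KLA (from 7), 6 to 9 for the Cre interaction with KLA (from 9), 6 to 7 for TBK1i_KLA against DMSO_KLA (from 6), with the other counts unmoved.

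Replicate numbers did not pair the libraries: deviations of same-numbered libraries correlated between -0.060 and 0.059 in the NCoR experiment. The replicate block changed 1 of 280 member results, Icosl above. Set against other KLA controls, the NKO_KLA values that changed sign were Cd274 (-0.55 with KLA, -0.16 with Pgc1b_flox_KLA), Cd40 (-0.082 with KLA), Cd80 (-0.70 with Pgc1b_flox_KLA), Icam1 (-0.59 with DMSO_KLA, -0.33 with KLA, -0.62 with Pgc1b_flox_KLA), Lag3 (0.35 with Pgc1b_flox_KLA) and Tnfsf9 (0.41 with Pgc1b_flox_KLA). The other sign changes were of values near 0, Cd80 in the NKO interaction with RANKL (-0.0055 with only the compared groups) and Cd83 with TBK1i (0.00066 with DESeq2, 0.00073 with its size factors). Without the filter the all-gene median of WT_KLA against WT_Veh moved by 0.14 to 0.

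Of 1360 results that left out 1 library, 1240 kept direction and call, 35 lost the call, 18 gained it and 67 changed sign, none of them a called value. The log2 fold changes that crossed 0 had these ranges, where those of Lag3 rest on a few counts and on the prior count of the fit. For WT_RANKL against WT_Veh they were Cd80 -0.030 to 0.52. For WT_IFNb against WT_Veh they were Icam1 -0.28 to 0.24. For WT_IL4 against WT_Veh they were Lag3 -2.94 to 4.77. For NKO_Veh against WT_Veh they were Cd80 -0.45 to 0.14, Lag3 -0.49 to 3.35 and Vcam1 -0.018 to 0.59. For NKO_KLA against WT_KLA they were Vcam1 -0.084 to 0.023. For NKO_RANKL against WT_RANKL they were Cd40 -0.13 to 0.20, Cd80 -0.38 to 0.17 and Icosl -0.27 to 0.070. For NKO_PolyIC against WT_PolyIC they were Cd274 -0.15 to 0.067. For NKO_IFNb against WT_IFNb they were Cd80 -0.56 to 0.20 and Lag3 -2.27 to 0.26. For NKO_IL4 against WT_IL4 they were Cd80 -0.062 to 0.24 and Lag3 -1.36 to 4.41. For the NKO interaction with KLA they were Cd274 -0.0084 to 0.17, Lag3 -3.70 to 0.14 and Tnfsf9 -0.90 to 0.034. For the NKO interaction with RANKL they were Cd274 -0.039 to 0.14, Cd80 -0.26 to 0.32, Lag3 -2.86 to 0.98, Tnfsf9 -0.19 to 0.74 and Vcam1 -0.13 to 0.48. For the NKO interaction with PolyIC they were Cd86 -0.21 to 0.12 and Tnfsf9 -0.63 to 0.30. For the NKO interaction with IFNb they were Cd80 -0.41 to 0.35, Cd83 -0.051 to 0.028, Icam1 -0.090 to 0.44 and Icosl -0.13 to 0.18. For the NKO interaction with IL4 they were Cd80 -0.059 to 0.53, Cd86 -0.0080 to 0.32, Icam1 -0.0052 to 0.52, Icosl -0.0037 to 0.63, Lag3 -3.72 to 3.99 and Tnfsf9 -0.26 to 0.67. For RGFP966_KLA against KLA they were Cd80 -0.022 to 0.38. For Pgc1b_flox_Cre_Veh against Pgc1b_flox_Veh they were Cd80 -0.23 to 0.19, Cd83 -0.022 to 0.29, Lag3 -5.38 to 2.80 and Tnfsf9 -0.068 to 0.42. For Pgc1b_flox_Cre_KLA against Pgc1b_flox_KLA they were Icosl -0.037 to 0.14. For the Cre interaction with KLA they were Lag3 -3.55 to 4.63. For TBK1i_KLA against DMSO_KLA they were Cd83 -0.077 to 0.021.

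Depth limits Lag3, which had 3 counts or fewer per library in most vehicle groups. Counts at rest were also low for Tnfsf9 (11 and 17 in NKO_Veh), Cd40 (25 and 49 in NKO_Veh) and Vcam1 (29 and 30 in Veh). Cd80 had 66 and 79 counts in NKO_Veh. With 2 libraries a group, a group left with 1 takes its spread from the other groups.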
